A study of Homo sapiens with 6 samples.

Results

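The 10 genes described here encode the death ligand TRAIL (TNFSF10), its 4 membrane receptors (TNFRSF10A, TNFRSF10B, TNFRSF10C and TNFRSF10D) and 5 other receptors of the tumor necrosis factor (TNF) family (FAS, TNFRSF1A, TNFRSF21, TNFRSF12A and TNFRSF9). They were measured on Affymetrix expression arrays by 28 probe sets annotated to 1 of these symbols alone, out of 19775 genes that have such a probe set. The genes were chosen by their changes at the doses against solvent on these arrays, TNFRSF9 above all. The arrays held RNA of 2 human cell lines, HuccT1, labelled as bile duct carcinoma, and KKU-100, labelled as poorly differentiated cholangiocarcinoma. Each line had 1 array with solvent, 1 with a low dose and 1 with a high dose of regorafenib, a kinase inhibitor, which makes 6 arrays in all. The labels give 1 μM and 10 μM, whereas the paper describes other doses, so low and high dose are used as names here. The labels also state that the cells carried a stable transduction and had been selected in puromycin, without naming a construct, and this applies to all 6 arrays.

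TRAIL binds TNFRSF10A and TNFRSF10B, which recruit the adaptor FADD and caspases through a death domain inside the cell and can start apoptosis. TNFRSF10C and TNFRSF10D bind TRAIL without a complete death domain and are known as decoy receptors. FAS and TNFRSF1A carry death domains as well, and TNFRSF1A, the main receptor of TNF, signals mostly to NF-kB. TNFRSF9, also called 4-1BB or CD137, has no death domain; it is best known as a costimulatory receptor of activated T cells and binds TRAF adaptors. The 4 TRAIL receptor genes lie next to each other on chromosome 8, in the order TNFRSF10B, TNFRSF10C, TNFRSF10D and TNFRSF10A among the protein-coding genes.

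The 6 arrays had median signals between 28.8 and 29.3, in the arbitrary linear units of the deposited values. A probe set counted as measured in a line when its mean log2 signal over the 3 arrays was at or above the 50th percentile, which left 27307 probe sets. Of the 28 probe sets of the 10 genes, 21 passed in HuccT1, 20 in KKU-100 and 7 in neither line, and each gene had at least 1 that passed. Of 6 markers of biliary epithelium, all passed in HuccT1 and 4 in KKU-100. The cytokeratin KRT19 had signals of 7650 to 9320 in HuccT1 and 8.62 to 11.1 in KKU-100, and the epithelial adhesion molecule EPCAM had 6430 to 6680 in HuccT1 and 8.95 to 11 in KKU-100, so these defining markers were at the bottom of the scale in KKU-100. The keratins KRT7, KRT8 and KRT18 were at 917 or more in both lines. A difference between 1 array and 1 array has no replicate check. Each dose was therefore set against solvent within its line as a log2 fold change with no p-value. Past 1.5-fold, the study's cutoff, a probe set counts as higher or lower. Both doses of a line share its solvent array, so a change seen at both is not a repeat. Given how the genes were chosen, their dose changes are a description.

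TNFRSF9 had the largest change of the 10 genes with the high dose in HuccT1, and the high dose of both lines stood apart from the other arrays. Its probe set with the highest signal, 207536_s_at, had signals of 30.2, 47.1 and 232.3 in HuccT1 with solvent, the low dose and the high dose. In KKU-100 the same probe set had 37.6, 48.5 and 167.4. The solvent arrays thus lay close to the array median and only the high-dose arrays well above it. With the high dose the log2 fold change was 2.94 in HuccT1, a 7.69-fold higher signal, and 2.15 in KKU-100, a 4.45-fold higher signal. At the low dose it was 0.64 in HuccT1, just past the cutoff, and 0.37 in KKU-100, within it. The difference between the high and the low dose, which does not involve the solvent array, was 2.30 in HuccT1 and 1.79 in KKU-100 on the log2 scale. Among all 27307 probe sets that passed, this change had rank 14 from the highest in HuccT1 and rank 17 in KKU-100 at the high dose, and rank 664 and rank 4888 at the low dose.

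The other probe sets of TNFRSF9 were dim. 211786_at had signals of 10.8, 12.9 and 31.3 in HuccT1 cells and of 12.1, 10.7 and 19.6 in KKU-100, for solvent, low and high dose. 238950_at had 17.5, 14.3 and 25.0 in HuccT1 cells and 13.5, 19.6 and 24.8 in KKU-100. Neither passed the level filter in either line, and both were brightest on the high-dose array of each line. Their log2 fold changes at the high dose were 1.54 and 0.51 in HuccT1 cells and 0.70 and 0.88 in KKU-100, so all 3 probe sets had the same sign at the high dose in both lines but differed in size. At the low dose the signs were mixed, with 0.26 and −0.29 in HuccT1 cells and −0.18 and 0.54 in KKU-100. The size of the change in TNFRSF9 therefore rests on 207536_s_at, and the fold change of the median signal over the 3 probe sets was 0.84 in HuccT1 and 0.88 in KKU-100 at the high dose. PTPRC, the common leukocyte antigen CD45, had signals of 9.1 to 10.5 over the 6 arrays, and the summed signal of 6 leukocyte markers was 253, 287 and 242 in HuccT1 cells and 254, 249 and 241 in KKU-100 for solvent, low and high dose. Of these markers 4 passed the filter in HuccT1 and 3 in KKU-100, with PTPRC in neither.

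**Figure D1:**
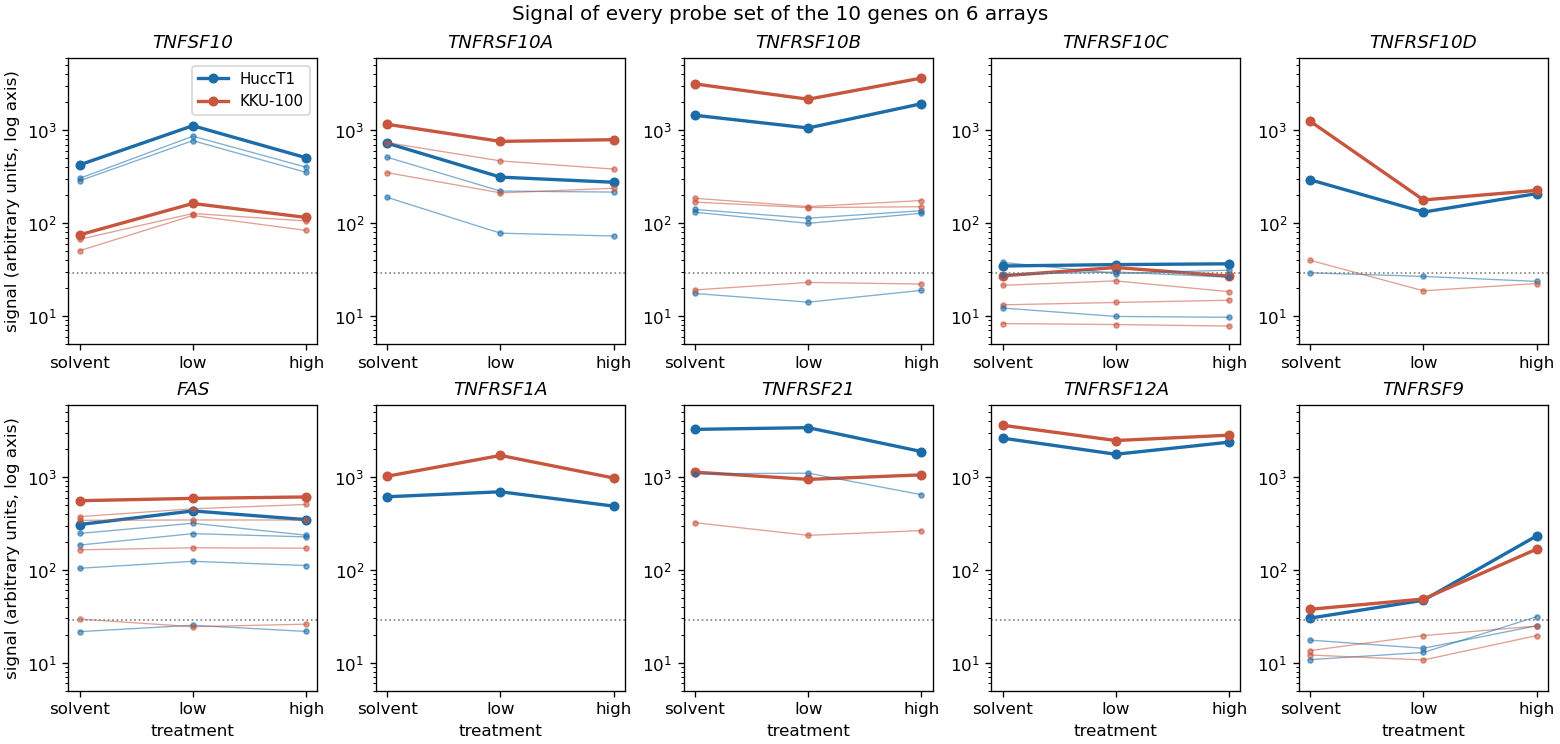
Signal of each probe set (y axis, arbitrary units, log axis) on the solvent, low-dose and high-dose arrays (x axis) of HuccT1 (blue) and KKU-100 (red), 1 array per point; the brightest probe set of a gene on average has the thick line, the others have thin lines, and the dotted line marks a signal of 29, about the median of an array. TNFRSF9 stands out on the high-dose arrays, at 232.3 in HuccT1 and 167.4 in KKU-100, and TNFSF10 peaks on the low-dose arrays.

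The promoters of TNFRSF9 and TNFSF10, the genes with the largest rises here, are shown because both lines had higher signals of these genes with regorafenib. They come from RefSeq on GRCh38.p14, with 250 bases before and 50 bases after the start site, and the table held promoters for 5 of the 10 genes. Capitals mark matches to 4 motifs, chosen after the sequences were seen and searched on both strands with overlaps allowed. They were NF-kB as GGGA, any base and TTTCC, AP-1 as TGANTCA, the cyclic AMP response element as TGACGTCA, and an interferon regulatory factor element as GAAA, any 2 bases and GAAA.
TNFRSF9, chr1:7940790-7941089, minus strand: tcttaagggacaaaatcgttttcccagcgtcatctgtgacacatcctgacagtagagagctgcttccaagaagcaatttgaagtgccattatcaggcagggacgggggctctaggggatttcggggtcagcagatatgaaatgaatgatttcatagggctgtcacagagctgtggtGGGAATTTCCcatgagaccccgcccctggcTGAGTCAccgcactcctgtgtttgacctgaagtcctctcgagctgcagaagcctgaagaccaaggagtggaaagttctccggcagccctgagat
TNFSF10, chr3:172523381-172523680, minus strand: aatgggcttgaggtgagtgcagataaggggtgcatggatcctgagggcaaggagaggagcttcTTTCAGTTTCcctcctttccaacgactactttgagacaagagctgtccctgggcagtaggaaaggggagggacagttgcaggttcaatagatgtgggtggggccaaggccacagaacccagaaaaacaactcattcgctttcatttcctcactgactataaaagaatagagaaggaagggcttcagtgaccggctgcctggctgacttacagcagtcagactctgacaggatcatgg
In the TNFRSF9 promoter the NF-kB letters begin 74 bases and the AP-1 letters 44 bases before the start site. In the TNFSF10 promoter the interferon regulatory factor element lies on the reverse strand and begins 187 bases before the start site. Of 35116 promoters of the same length, 0.558% held the NF-kB letters, 7.71% the AP-1 letters, 1.85% the cyclic AMP response element and 3.57% the interferon regulatory factor element. Of the other promoters searched one of FAS held AP-1 letters. These matches describe letters only, and binding was not measured.

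The 5 genes with dose changes most like those of TNFRSF9 were TSC22D3, a glucocorticoid-induced leucine zipper protein, CCL5, a chemokine, PCK2, the mitochondrial phosphoenolpyruvate carboxykinase, FBXO16 and PPP4R4. Likeness was the Euclidean distance between 4 log2 fold changes, those of the low and the high dose in each line. It was taken over 13449 genes that passed the level filter in 1 or both lines. PPP4R4 did not pass in KKU-100, where its signals were 13.6, 17.8 and 40.7 for solvent, low and high dose. The distance was 0.59 for TSC22D3, 0.78 for CCL5, 0.89 for PCK2, 0.94 for FBXO16 and 0.99 for PPP4R4. CCL5 came closest in the contrast between the doses, with log2 fold changes of 0.39 and 2.58 in HuccT1 cells and −0.23 and 1.89 in KKU-100 for the low and the high dose. Its level differed between the lines, at signals of 20.3, 26.6 and 121.2 in HuccT1 cells and 454.8, 388.3 and 1690.6 in KKU-100 for solvent, low and high dose. TSC22D3 was already past the cutoff at the low dose, with 1.03 in HuccT1 and 0.60 in KKU-100. The 4 changes share a solvent array within each line, and the list is a description of these arrays.

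TNFSF10, which encodes TRAIL, was higher at the low dose in both lines and nearer to solvent at the high dose. Its brightest probe set, 202688_at, had signals of 424.0, 1120 and 505.9 in HuccT1 with solvent, the low and the high dose. In KKU-100 it had 74.8, 163.0 and 115.2. The log2 fold change at the low dose was 1.40 in HuccT1 and 1.12 in KKU-100, and at the high dose 0.25 in HuccT1, within the cutoff, and 0.62 in KKU-100, just past it. The low-dose array was the brightest of the 3 in each line for all 3 probe sets of this gene. 214329_x_at had 303.3, 862.8 and 400.9 in HuccT1 cells and 66.9, 127.0 and 105.6 in KKU-100. 202687_s_at had 285.7, 773.0 and 352.4 in HuccT1 cells and 50.5, 121.0 and 83.5 in KKU-100. Over the 3 probe sets the log2 fold changes at the low dose thus lay between 1.40 and 1.51 in HuccT1 and between 0.93 and 1.26 in KKU-100. The high minus the low dose was −1.15 to −1.11 in HuccT1 and −0.54 to −0.27 in KKU-100 on the log2 scale.

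TNFRSF10A, the TRAIL receptor DR4, was lower at both doses in HuccT1 by all 3 of its probe sets. 231775_at had signals of 726.0, 313.1 and 275.5 in HuccT1 with solvent, the low and the high dose, and 1160, 759.3 and 791.8 in KKU-100. The solvent array was thus the brightest in each line, and both dose arrays lay close together. 1552648_a_at had 512.4, 221.6 and 216.1 in HuccT1 cells and 736.0, 467.8 and 381.8 in KKU-100. 241371_at had 189.5, 78.0 and 72.7 in HuccT1 cells and 350.0, 211.9 and 237.4 in KKU-100. In HuccT1 the log2 fold changes lay between −1.28 and −1.21 at the low dose and between −1.40 and −1.25 at the high dose. In KKU-100 they lay between −0.72 and −0.61 at the low dose, where all 3 passed the cutoff, and between −0.95 and −0.55 at the high dose, where 1552648_a_at alone passed. Whether HuccT1 and KKU-100 differ in this change was not tested.

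TNFRSF10B, the TRAIL receptor DR5, stayed within 1.5-fold of solvent in all 4 comparisons. 209295_at, its brightest probe set, had signals of 1451, 1059 and 1931 in HuccT1 cells and of 3157, 2160 and 3649 in KKU-100 for solvent, low and high dose. In both lines the low-dose array was the dimmest and the high-dose array the brightest. The log2 fold changes were −0.45 and 0.41 in HuccT1 cells and −0.55 and 0.21 in KKU-100, and the high dose was above the low dose by 0.87 in HuccT1 and 0.76 in KKU-100. 210405_x_at and 209294_x_at were also lowest at the low dose in both lines, by −0.31 and −0.40 in HuccT1 cells and −0.30 and −0.20 in KKU-100, but at the high dose they were at −0.05 and −0.04 in HuccT1 cells and at −0.08 and −0.16 in KKU-100. The fourth probe set, 1556645_s_at, had signals of 14.1 to 23.0 and did not pass the filter.

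TNFRSF10D, a decoy receptor, had the largest fall of the 10 genes, in KKU-100. 227345_at had signals of 293.1, 131.6 and 208.1 in HuccT1 with solvent, the low and the high dose, and 1252, 177.7 and 225.3 in KKU-100. The KKU-100 solvent array stood above the other 5, which lay between 131.6 and 293.1. The log2 fold changes were −2.82 with the low and −2.47 with the high dose in KKU-100, with ranks 27 and 19 from the lowest of 27307, and −1.16 and −0.49 in HuccT1. The dim probe set 210654_at, which did not pass the filter, had 39.8, 18.7 and 22.4 in KKU-100 and log2 fold changes of −1.09 and −0.83 there, against −0.13 and −0.31 in HuccT1. TNFRSF10C, the other decoy receptor, was near the array median or below it in both lines by the probe sets annotated to it alone. Its 4 probe sets had signals of 9.7 to 37.8 in HuccT1 and of 7.8 to 33.3 in KKU-100, and their log2 fold changes lay between −0.40 and 0.29.

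FAS, the receptor of FAS ligand, had no probe set past the cutoff in any comparison. 204780_s_at had signals of 307.1, 430.7 and 347.0 in HuccT1 cells and of 554.9, 588.0 and 608.8 in KKU-100 for solvent, low and high dose. In HuccT1 its low-dose array was the brightest, with a log2 fold change of 0.49, and the 3 other probe sets that passed the filter were at 0.25 to 0.41. In KKU-100 these 4 probe sets lay between 0.01 and 0.43 over both doses. TNFRSF1A had signals of 612.0, 692.3 and 485.0 in HuccT1 cells and of 1018, 1704 and 973.2 in KKU-100. The low-dose array was the brightest in each line, with log2 fold changes of 0.18 in HuccT1 and 0.74 in KKU-100, past the cutoff there, and the high dose was at −0.34 in HuccT1 and −0.06 in KKU-100.

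TNFRSF21, the death receptor DR6, was lower in HuccT1 at the high dose alone. 218856_at had signals of 3252, 3395 and 1877 in HuccT1 cells and of 1126, 941.6 and 1053 in KKU-100 for solvent, low and high dose. 214581_x_at had 1080, 1098 and 643.9 in HuccT1 cells and 321.9, 235.0 and 264.6 in KKU-100. Both probe sets thus had a dimmer high-dose array in HuccT1, at −0.79 and −0.75 on the log2 scale, against 0.06 and 0.02 at the low dose, and in KKU-100 they lay between −0.45 and −0.10. TNFRSF12A, the TWEAK receptor Fn14, had signals of 2618, 1755 and 2369 in HuccT1 cells and of 3603, 2466 and 2816 in KKU-100. Its low-dose array was the dimmest in each line, with log2 fold changes of −0.58 in HuccT1 and −0.55 in KKU-100, both just within the cutoff, and the high dose was at −0.14 in HuccT1 and −0.36 in KKU-100.

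**Figure D2:**
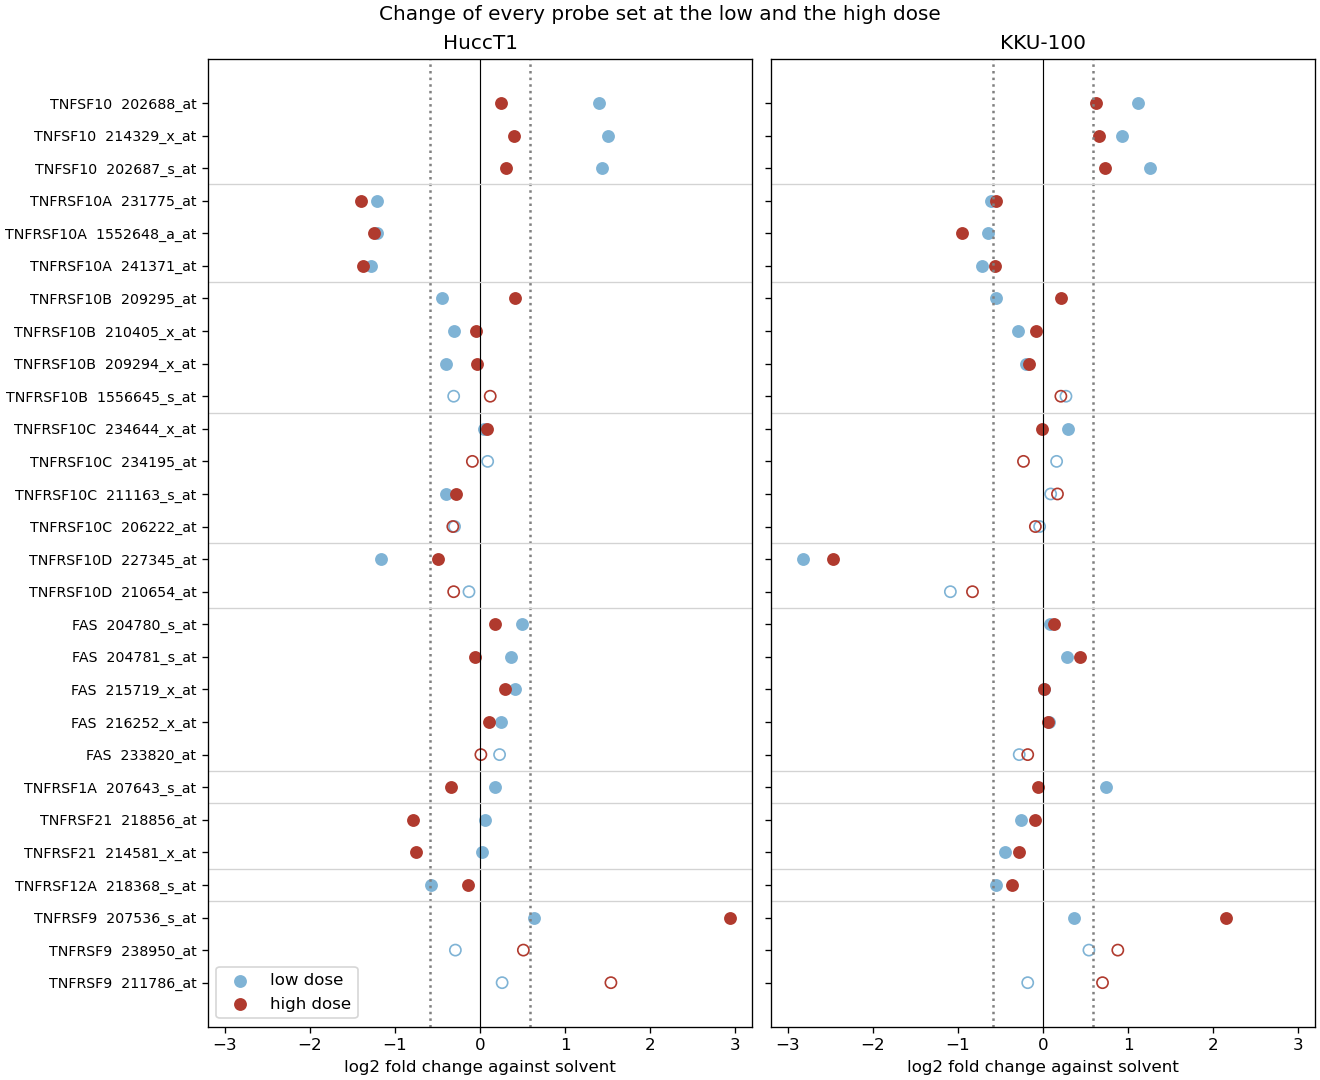
Dose against solvent as log2 fold change (x axis) of the 28 probe sets (y axis) in HuccT1 (left) and KKU-100 (right) for the low dose in light blue and the high dose in red, with 1 array behind each; circles of probe sets that did not pass are open, and 1.5-fold is dotted. The 3 probe sets of TNFSF10 have the low dose to the right of the high dose in both lines, and 207536_s_at of TNFRSF9 reaches 2.94 in HuccT1 and 2.15 in KKU-100.

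Over the measured probe sets of the 10 genes in HuccT1, the low dose had 4 of 21 higher and 4 lower, where 3.05% of all probe sets were higher and 4.5% lower, and the high dose had 1 higher and 5 lower, where 7.14% and 7.58% of all were. In KKU-100, the low dose had 4 of 20 higher and 4 lower, beside 8.41% and 9.05% of all probe sets, and the high dose 4 higher and 2 lower, beside 8.28% and 7.4%. These counts rest on few genes, since the 3 probe sets of TNFSF10 and the 3 of TNFRSF10A measure 1 gene each. By gene, TNFRSF9 and TNFSF10 were higher and TNFRSF10A and TNFRSF10D lower in HuccT1 with the low dose, and TNFRSF9 was higher and TNFRSF10A and TNFRSF21 lower with the high dose. In KKU-100, TNFSF10 and TNFRSF1A were higher and TNFRSF10A and TNFRSF10D lower at the low dose, and TNFRSF9 and TNFSF10 were higher and TNFRSF10D and, by 1552648_a_at, TNFRSF10A lower at the high dose. The median log2 fold change of the measured probe sets was 0.05 and −0.05 in HuccT1 cells and −0.09 and −0.04 in KKU-100 for the low and the high dose, beside −0.01 for each dose of HuccT1 and 0.03 and 0.02 for KKU-100 over all probe sets. These changes chose the genes, so nothing is read from the shares.

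**Figure D3:**
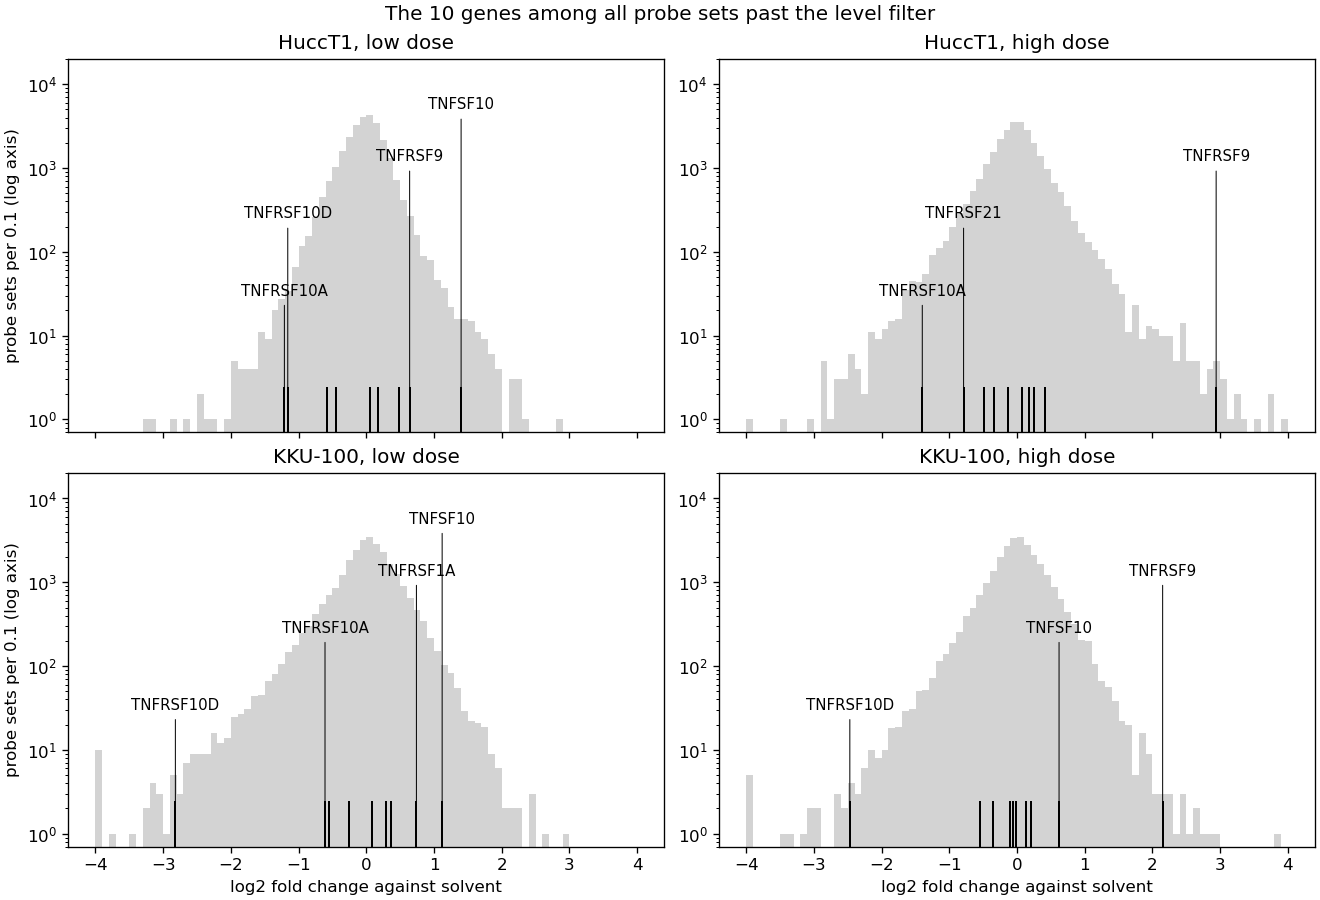
Number of probe sets (y axis, log axis) by log2 fold change against solvent (x axis, bins of 0.1, values past 4 placed in the outermost bins) for HuccT1 (top) and KKU-100 (bottom) at the low (left) and the high dose (right), over 27307 probe sets that passed the filter; black ticks mark the brightest probe set of each of the 10 genes, and names stand at those past 1.5-fold. TNFRSF9 lies in the right tail at the high dose in both lines, and TNFRSF10D in the left tail in KKU-100.

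The levels of these genes were also compared between the lines, which the choice of genes did not use. A limma fit of all 6 arrays held the treatment as a factor, and HuccT1 was compared with KKU-100 over 3 arrays each. The arrays of a line are different treatments of 1 line, so the p-values measure only the spread left between these arrays. Of the 20 probe sets of the 10 genes that were tested, 5 were higher and 11 lower in HuccT1 at an adjusted p under 0.05, where limma called 25% of all 27307 probe sets higher and 26.1% lower. The share of higher probe sets is thus that of all probe sets. TNFSF10 was the gene with the largest difference. Its 3 probe sets were higher in HuccT1, and 202688_at averaged 9.28 ± 0.75 in HuccT1 and 6.81 ± 0.56 in KKU-100 (log2 signal, SD, n = 3 each), a difference of 2.47 with a standard error of 0.17 (limma adjusted p = 0.000243). The arrays of the lines did not overlap for any of the 3. TNFRSF21 was higher in HuccT1 as well, by 1.40 for 218856_at (standard error 0.20, limma adjusted p = 0.0028) and by 1.75 for 214581_x_at. By the methods' t-test neither probe set of TNFRSF21 passed (adjusted p = 0.105 for 218856_at and 0.076 for 214581_x_at). Of TNFSF10, 202687_s_at and 202688_at passed by that test (adjusted p = 0.0423 and 0.0432) and 214329_x_at did not (adjusted p = 0.0563).

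The receptors of TRAIL that carry a death domain had the opposite order. TNFRSF10A differed by −0.81 to −1.34 over its 3 probe sets, and 231775_at averaged 8.63 ± 0.76 in HuccT1 and 9.79 ± 0.34 in KKU-100 (log2 signal, SD, n = 3 each; limma adjusted p = 0.00451). The arrays of the lines overlapped for 1552648_a_at and not for the others, and by the methods' t-test none of the 3 passed (adjusted p from 0.088 to 0.107). TNFRSF10B differed by −1.02 for 209295_at (standard error 0.08, limma adjusted p = 0.000364) and by −0.39 for 210405_x_at (limma adjusted p = 0.0453), while 209294_x_at, also at −0.39, missed the threshold (limma adjusted p = 0.0629). After quantile normalization 210405_x_at missed it too (limma adjusted p = 0.0541), as it did without the level filter (limma adjusted p = 0.0715). By the methods' t-test 210405_x_at passed (adjusted p = 0.0323). FAS was lower in HuccT1 by 0.59 to 0.74 on the log2 scale over 4 probe sets, whose arrays did not overlap between the lines, with limma adjusted p-values from 0.00868 to 0.0132. Without the high-dose array of HuccT1 or of KKU-100 none of the 4 passed (limma adjusted p from 0.0587 to 0.0797), and by the methods' t-test 216252_x_at alone did. TNFRSF1A differed by −1.01 (standard error 0.14, limma adjusted p = 0.0025) and TNFRSF12A by −0.40 (standard error 0.08, limma adjusted p = 0.00905), where the arrays of the lines overlapped. By the methods' t-test neither gene passed (adjusted p = 0.0788 for TNFRSF1A and 0.0928 for TNFRSF12A). For 3 genes the difference did not pass by limma. TNFRSF9 averaged 6.11 ± 1.55 in HuccT1 and 6.07 ± 1.15 in KKU-100 (log2 signal, SD, n = 3 each; difference 0.04, standard error 0.18, limma adjusted p = 0.884). TNFRSF10D differed by −0.88 (standard error 0.39, limma adjusted p = 0.117), with solvent signals of 293.1 in HuccT1 and 1252 in KKU-100 but high-dose signals of 208.1 in HuccT1 and 225.3 in KKU-100. Without the solvent array of either line the difference for TNFRSF10D was −0.27. TNFRSF10C, by 234644_x_at, differed by 0.30 (standard error 0.12, limma adjusted p = 0.0857). Without the low-dose array of either line, or the high-dose array of either line, limma called 6 of the 20 lower in place of 11, and the methods' t-test, paired over the treatments, called 2 higher and 3 lower after adjustment.

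**Figure D4:**
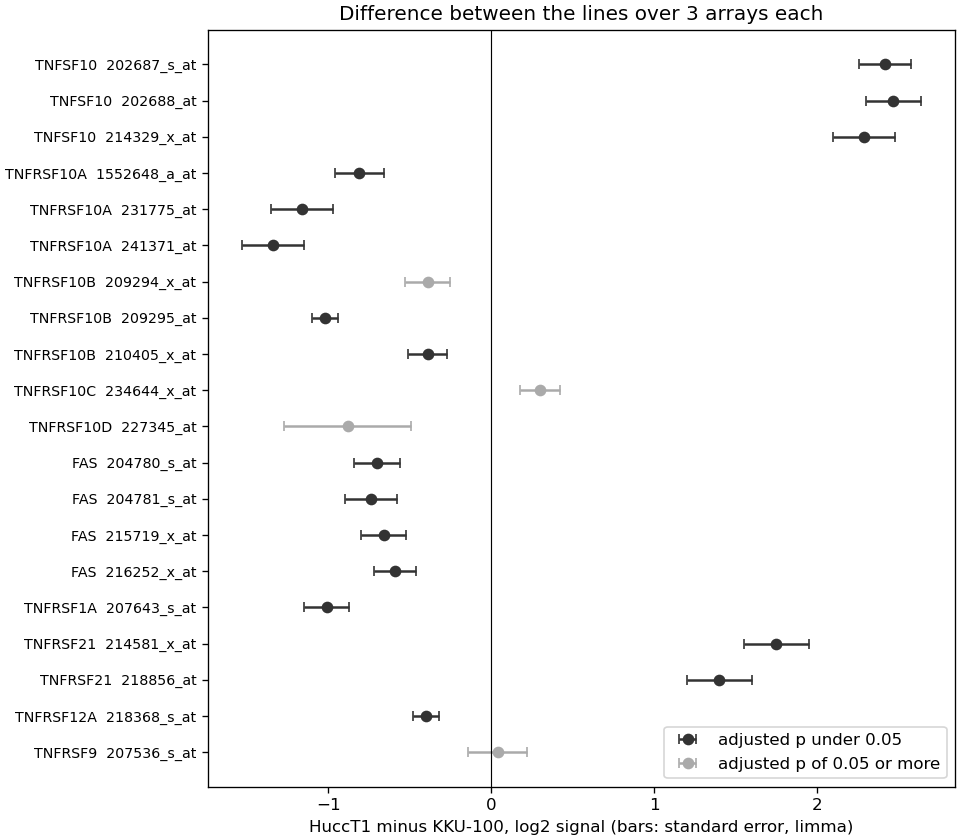
Difference in log2 signal between HuccT1 and KKU-100 (x axis, HuccT1 minus KKU-100) for the 20 tested probe sets (y axis), with standard errors from limma over 3 arrays of each line; dark points passed an adjusted p under 0.05 and grey points did not. The probe sets of TNFSF10 and TNFRSF21 lie to the right of 0, and those of TNFRSF10A, TNFRSF10B, FAS, TNFRSF1A and TNFRSF12A to the left.

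Other genes of the family and of the pathway were taken from 5 lists with 58 genes, of which 50 had a probe set of their own, with the brightest probe set standing for the gene. Among other TNF receptors in HuccT1, the low dose had 2 of 14 measured genes higher and 2 lower, beside 3.68% and 3.32% of all measured genes, and the high dose 3 higher and 0 lower, beside 8.23% and 6.44%. TNFRSF11B, the soluble receptor osteoprotegerin, which can bind TRAIL, had signals of 594.1, 1848 and 745.3 in HuccT1 cells and of 408.8, 503.9 and 312.8 in KKU-100 for solvent, low and high dose. As for TNFSF10, the low-dose array was the brightest in each line, with a log2 fold change of 1.64 in HuccT1 and 0.30 in KKU-100. TNFRSF19 was higher at both doses in HuccT1, with 0.95 and 0.88, and with the low dose in KKU-100, at 1.00. TNFRSF1B, the other TNF receptor, had 0.54 and 1.42 in HuccT1 and did not pass the filter in KKU-100. TNFRSF11A, the receptor RANK, had −0.59 and 0.75 in HuccT1, and its other probe set was at 0.19 with the high dose. In KKU-100, 1 of 13 receptors was higher and 1, RELT (−0.79), lower at the low dose, beside 9.75% and 7.32% of all genes, and 0 were higher or lower at the high dose, beside 9.44% and 4.86%.

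Of the other TNF ligands in HuccT1, the low dose had 3 of 10 higher and 1 lower, beside 3.68% and 3.32% of all measured genes, and the high dose 2 higher and 3 lower, beside 8.23% and 6.44%. TNF had signals of 187.0, 370.8 and 490.7 in HuccT1 cells and of 35.9, 39.0 and 63.3 in KKU-100 for solvent, low and high dose. The signal increased with the dose in each line, with log2 fold changes of 0.99 and 1.39 in HuccT1 cells and 0.12 and 0.82 in KKU-100. LTB, lymphotoxin beta, was at 2.35 and 0.79 in HuccT1, and TNFSF11, the RANK ligand, at −0.95 and −1.24. TNFSF14 was at −1.17 at the high dose in HuccT1 and TNFSF4, the OX40 ligand, at 0.73 with the high dose in KKU-100. TNFSF9, the ligand of TNFRSF9, had signals of 171.3, 278.4 and 105.9 in HuccT1 cells and of 578.5, 330.1 and 212.3 in KKU-100. Its high-dose array was the dimmest in each line, where TNFRSF9 was brightest, with log2 fold changes of −0.69 in HuccT1 and −1.45 in KKU-100. In KKU-100, the low dose had 0 of 9 ligands higher and 1 lower, beside 9.75% and 7.32% of all genes, and the high dose 2 higher and 1 lower, beside 9.44% and 4.86%. TNFSF13B was within the cutoff there by its brightest probe set, at 0.18 with the low and 0.36 with the high dose. Its other measured probe set was past the cutoff, at 0.85 and 1.12.

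Of 9 adaptors and caspases of the death receptors, 6 were measured in HuccT1 and 5 in KKU-100. In HuccT1 1 of 6 was higher with each dose, beside 3.68% and 8.23% of all genes, and 0 were lower. This was CASP10, a caspase recruited by death receptors, at 1.05 and 0.75, while its 2 other measured probe sets stayed within it. FADD was at −0.27 and −0.51 in HuccT1 cells and at 0.60, past the cutoff, and 0.47 in KKU-100, where the low dose had 1 of 5 higher and the high dose 0, beside 9.75% and 9.44% of all genes. CASP8, the initiator caspase of these receptors, was within the cutoff by its brightest probe set, and its other probe set was at −0.60 in KKU-100 with the high dose. TRADD was at 0.48 and 0.50 in KKU-100, where its other probe set reached 0.68 with the low dose, and BID and DIABLO stayed within 1.5-fold. Among the inhibitors, 2 of 5 were higher at the high dose in both lines, beside 8.23% of all genes in HuccT1 and 9.44% in KKU-100, namely CFLAR, which encodes the caspase-8 inhibitor FLIP, and TNFAIP3, the NF-kB feedback inhibitor A20. CFLAR was at 0.61 in each line, and of its measured probe sets 5 of 12 in HuccT1 and 6 of 11 in KKU-100 were past the cutoff, with a range of 0.04 to 0.76 in HuccT1 and 0.26 to 0.68 in KKU-100. TNFAIP3 had signals of 2472, 2662 and 3758 in HuccT1 cells and of 572.0, 437.8 and 2046 in KKU-100 for solvent, low and high dose. Its high-dose array was thus the brightest in each line, with a log2 fold change of 0.60 in HuccT1 and 1.84 in KKU-100. Its other probe set was at 0.57, within the cutoff, in HuccT1 and at 1.68 in KKU-100. CYLD, a deubiquitinase, was lower in KKU-100, at −1.21 and −0.92. At the low dose 4 of its 5 measured probe sets were lower in KKU-100, with a range of −1.21 to −0.18. At the high dose 1 of 5 was lower in KKU-100, with a range of −0.92 to 0.34, and in HuccT1 3 of 5 were higher. BIRC2, an inhibitor of apoptosis protein, was at 0.53 in HuccT1 and 0.17 in KKU-100 at the high dose.

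Of 5 TRAF adaptors, which connect these receptors to NF-kB and MAP kinases, 2 were higher at the high dose in each line by their brightest probe set, where 8.23% of all genes in HuccT1 cells and 9.44% in KKU-100 were, and 0 were lower in any comparison. By other probe sets, TRAF4 had 2 of 4 higher with the low dose and 1 lower with the high dose in KKU-100, from −0.36 to 0.70 and from −0.65 to 0.55. TRAF1, a partner of TNFRSF9, was at 0.08 and 0.97 in HuccT1 cells and at −0.30 and 0.35 in KKU-100. TRAF3 was at 0.59 in HuccT1 and 0.68 in KKU-100 at the high dose, and its other probe set was at 0.09 in HuccT1 and 0.72 in KKU-100. TRAF5 had signals of 165.7, 125.5 and 119.4 in HuccT1 cells and of 73.6, 179.3 and 185.8 in KKU-100 for solvent, low and high dose. The dose arrays were dimmer than solvent in HuccT1, within the cutoff, and brighter in KKU-100, with 1.28 and 1.34. TRAF6 stayed within 1.5-fold in both lines, at −0.54 and −0.50 in KKU-100. The median log2 fold change over all measured genes was 0.02 at each dose in HuccT1 and 0.06 at each dose in KKU-100. The inhibitors had medians of 0.11 and 0.53 in HuccT1 cells and of −0.39 and 0.17 in KKU-100 for the low and the high dose. The TRAF adaptors had −0.10 and −0.09 in HuccT1 cells and −0.30 and 0.35 in KKU-100. The sign of this median at the high dose was opposite in the lines. By gene, TRAF5 alone had opposite signs there, at −0.47 in HuccT1 and 1.34 in KKU-100. The adaptors and caspases had 0.06 and 0.03 in HuccT1 cells and 0.27 and 0.36 in KKU-100. Medians of the other receptors were 0.08 and 0.16 in HuccT1 cells and 0.04 and −0.05 in KKU-100, and those of the ligands 0.16 and 0.08 in HuccT1 cells and 0.02 and 0.12 in KKU-100.

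**Figure D5:**
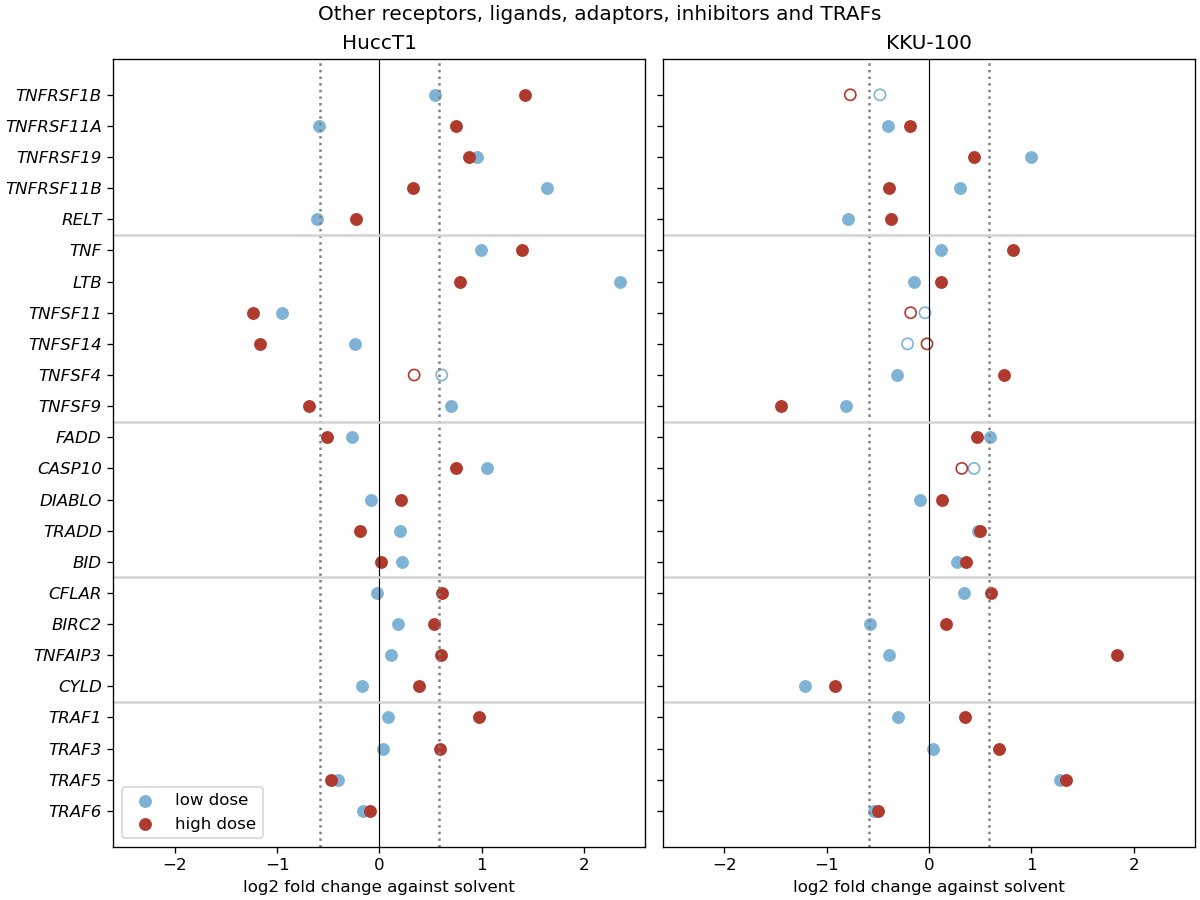
Dose against solvent as log2 fold change (x axis) of the named genes of the other lists (y axis; from the top, receptors, ligands, adaptors and caspases, inhibitors and TRAF adaptors) in HuccT1 (left) and KKU-100 (right) for the low dose in light blue and the high dose in red; open circles mark genes below the level filter, with 1.5-fold dotted. TNFAIP3 reaches 1.84 at the high dose in KKU-100, and TNFSF9 lies at −1.45 there.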

How the data were processed

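Gene expression was measured on 6 Affymetrix arrays. The authors deposited a linear intensity for every probe set. Their processing notes name MAS5, the version not given in the sources used here, while the methods of the paper name GeneSpring and log2. The values were log2 transformed without further scaling after 62 control probe sets were left out. Gene symbols came from the platform annotation, with 41091 probe sets carrying 1 symbol, 1801 several and 11721 none, and were updated through gene IDs. The members, lists and rules were chosen with earlier results of these data known. The genes named are the 10 members, the members of other lists past 1.5-fold in 1 direction with both doses of a line or among the 3 largest changes at the high dose, and the 5 most like TNFRSF9. Some others are named where a further probe set passed the cutoff.

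limma 3.58.1 in R 4.3.3 compared the lines (lmFit, eBayes with a trend, 2 residual and 3.41 prior degrees of freedom, Benjamini-Hochberg adjustment over probe sets whose mean log2 signal over 6 arrays reached the 50th percentile). The fit was tested on simulated data. Other steps used Python 3.11.15, numpy 2.4.6 and pandas 2.3.3. The alternatives were other scalings, filters, cutoffs, probe set choices, limma settings, the methods' t-test and leaving out each array. The paper's methods name Student's t-test but describe no pairing, comparison of lines or adjustment for the arrays, which were added here. The number of arrays limits the precision.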

Additional observations from a re-analysis of the deposited data

Results flagged for a closer look

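TNFSF9, the ligand of TNFRSF9, was past 1.5-fold in opposite directions in the lines at the low dose, with a log2 fold change of 0.70 in HuccT1 and −0.81 in KKU-100, each from 1 array against 1 solvent array. No test of this difference was made. By the brightest probe set of each gene, no other gene of the lists measured in both lines did so at the same dose. By other probe sets, CYLD at the high dose had 3 of 5 higher in HuccT1, up to 0.91, and 1 of 5 lower in KKU-100, at −0.92.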

How the results depend on the processing

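Quantile normalization, centring of each array and a floor at the 20th percentile moved none of the 40 fold changes of the 10 genes by 1.5-fold or more. Values near the cutoff did cross it. After quantile normalization TNFSF10 was at 0.58 in KKU-100 at the high dose, where 3 probe sets were then higher and 3 lower. After centring TNFRSF12A was at −0.60 in HuccT1 at the low dose, where 5 were then lower. The choice of probe set moved some fold changes by 1.5-fold or more. As the median over its 3 probe sets, TNFRSF9 was at 1.54 in HuccT1 and 0.88 in KKU-100 at the high dose. As the fold change of the median signal, an alternative chosen after seeing the data, it was at 0.84 and 0.88 there, and at −0.29 in HuccT1 at the low dose, where the sign turned. TNFRSF10D in KKU-100 was at −1.96 and −1.65 by the median of its probe sets. At a 2-fold cutoff, the high dose had 3 probe sets lower in HuccT1, and KKU-100 had 2 higher and 1 lower with the low dose and 1 higher and 1 lower with the high dose. Without probe sets ending in _x_at or _s_at, HuccT1 had 1 higher with the low and 0 with the high dose, which leaves out 207536_s_at of TNFRSF9, and 1 was higher at each dose in KKU-100. Without the level filter, 2 were higher in HuccT1 at the high dose.

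Between the lines, the methods' t-test gave 5889 higher and 5987 lower probe sets in HuccT1 at an unadjusted p under 0.05, and 2334 and 2353 after adjustment, of which 2 and 3 belong to the 10 genes, against 6832 and 7130 called by limma. Leaving out 1 array at a time gave 4660 to 7065 higher and 4510 to 7678 lower, and for the 10 genes 5 higher and 6 to 10 lower. The lowest counts over all probe sets came without a low-dose array, and 6 lower probe sets of the 10 genes without a low-dose or a high-dose array. The lone array of that treatment then no longer bears on the difference, which leaves 2 arrays of each line. Without the level filter, 8 probe sets of the 10 genes were higher in HuccT1. Without the treatment term, 1552648_a_at of TNFRSF10A (limma adjusted p = 0.132), 210405_x_at of TNFRSF10B (0.0781) and TNFRSF12A (0.124) missed the threshold. No paired analysis by replicate number was possible because each condition has 1 array; the treatment term pairs the lines instead.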

Other observations

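Further probe sets at the TRAIL receptor genes are annotated to other transcripts or to several genes. 210483_at, annotated to TNFRSF10C and LOC254896, had signals of 41.1, 46.8 and 53.2 in HuccT1 cells and of 79.0, 109.5 and 119.2 in KKU-100 for solvent, low and high dose, brighter than any probe set of TNFRSF10C alone in KKU-100. The log2 fold changes of 210483_at were 0.19 and 0.37 in HuccT1 cells and 0.47 and 0.59 in KKU-100, the last just past the cutoff. 210484_s_at, annotated to the same genes, was at 0.32 and 0.33 in KKU-100. TNFRSF10A-DT, the divergent transcript of TNFRSF10A, had 72.4, 63.6 and 75.5 in HuccT1 cells and 107.9, 109.6 and 113.2 in KKU-100. Its log2 fold changes lay between −0.18 and 0.07, beside −0.55 to −1.40 for the brightest probe set of TNFRSF10A.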
